A study of Mus musculus with 4 samples.

Results

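Chromatin modifiers and remodelers were followed in mouse cells panned for oligodendrocytes, which make the myelin of the brain, with and without the palmitoyltransferase gene Zdhhc5. The members were all listed genes whose symbols belong to a fixed set of chromatin gene families (Kdm, Kmt, Hdac, Setd, Smarc, Chd, Arid, Ezh, Brd, Tet, Dnmt, Kat, Asxl, Sirt and a few single genes), with the Y-linked Kdm5d left out. There were 72 of them among 6940 genes. Every gene in the table had already been called different by the authors, so whether a member changed was fixed by its being listed, and the results below concern direction, size and shared features.

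Messenger RNA was measured in 4 libraries. The 2 conditional knockout (cKO) libraries came from Olig1cre/+;Zdhhc5fl/fl mice, in which Cre made from the Olig1 locus deletes Zdhhc5 in cells that express Olig1, and the 2 control libraries came from Zdhhc5fl/fl mice with no Cre. Both groups were C57BL/6 cells from cortex at postnatal day 5, captured by panning on GalC and O4 antibodies, grown for 6 days and collected 24 h after a switch to medium with 40 ng/mL of thyroid hormone (T3). Nothing in the labels tells if libraries of 1 genotype are from different animals or cultures, so p-values rest on the spread between these libraries, which may be technical. Cre and the changed Olig1 locus were present in cKO cells alone, so their effects cannot be told apart from those of the Zdhhc5 deletion. Zdhhc5 itself was not analysed here, and the genotype labels were not checked by its level.

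DNA in the nucleus is wound on histones, and chromatin enzymes set how open each stretch is. Acetyltransferases and methyltransferases add marks to histone tails, deacetylases and demethylases remove them, and remodelers use ATP to slide or evict nucleosomes. In the oligodendrocyte lineage, histone deacetylases, the remodelers Chd7 and Chd8 and the Brg1 complex are known for their part in the step from precursor to myelinating cell.

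Values in the table are reads scaled by a size factor for each library, called normalised reads here. The 72 genes held 150550 and 102973 recovered reads in the cKO libraries, against 160002 and 157387 in the controls. They made up 0.750% and 0.753% of the listed reads in cKO cells and 0.937% and 0.938% in control cells. In cKO cells 62 of the 72 fell and 10 rose (limma on log2(value + 1), adjusted p under 0.05), with both cKO libraries beyond both controls in each of them. Over all listed genes 53.3% fell and 46.7% rose in that test, so the share that fell was larger among chromatin genes, at 86.1%. The same percentages of all genes, 53.3% and 46.7%, had both cKO libraries below or above both controls. The median log2 fold change was -0.45 among chromatin genes and -0.22 over all listed genes. Most of the falls were moderate. Means were at least 1.5-fold lower in 23 chromatin genes (31.9%, against 27.7% of all listed genes) and at least 2-fold lower in 6 (8.33%, against 11.8%). No chromatin gene was 1.5-fold higher or more, where 17.5% of all listed genes were.

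**Figure D1:**
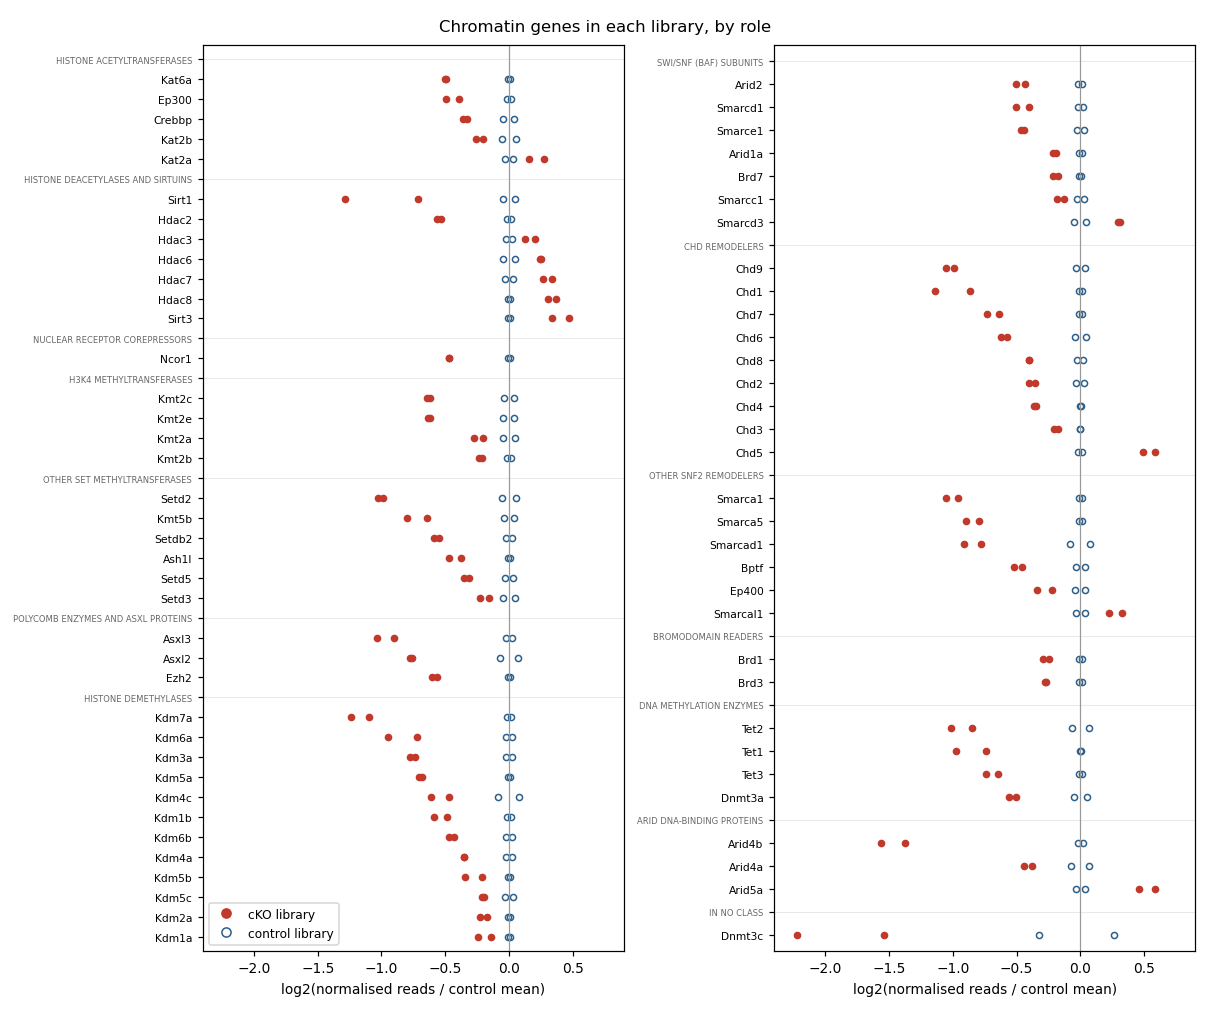
Normalised reads of 70 of the 72 chromatin genes in each library, as log2 of the ratio to the mean of the 2 control libraries (x axis), by role. Filled points are cKO libraries and open points are control libraries. The cKO points lie left of the control points in 60 genes and right of them in 10, of which 5 are deacetylases or sirtuins.

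The promoters of 4 genes are shown first, for Arid4b and Setd2, which fell by more than 2-fold, and for Arid5a and Chd5, which had the largest rises. Each runs from 250 bases before to 50 bases after an annotated start, 5′ to 3′ on the gene's strand (RefSeq, GRCm38.p6). Capitals mark the GC box GGGCGG, a site of Sp and KLF factors, on either strand. The coordinates are chr13:14063534-14063833 (+) for Arid4b, chr9:110532347-110532646 (+) for Setd2, chr1:36307483-36307782 (+) for Arid5a and chr4:152338401-152338700 (+) for Chd5.
Arid4b: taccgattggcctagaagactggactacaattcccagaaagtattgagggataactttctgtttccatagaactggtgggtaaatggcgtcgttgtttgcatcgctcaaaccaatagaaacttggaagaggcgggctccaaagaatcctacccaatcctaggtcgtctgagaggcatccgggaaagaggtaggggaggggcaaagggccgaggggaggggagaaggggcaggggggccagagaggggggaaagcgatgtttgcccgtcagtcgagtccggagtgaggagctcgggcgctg
Setd2: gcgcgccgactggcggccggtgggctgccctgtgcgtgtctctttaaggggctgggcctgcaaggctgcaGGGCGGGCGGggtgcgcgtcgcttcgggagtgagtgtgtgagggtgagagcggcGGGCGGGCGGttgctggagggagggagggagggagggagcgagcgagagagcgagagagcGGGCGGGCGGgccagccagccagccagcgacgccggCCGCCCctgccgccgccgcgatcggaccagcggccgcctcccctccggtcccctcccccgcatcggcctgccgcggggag
Arid5a: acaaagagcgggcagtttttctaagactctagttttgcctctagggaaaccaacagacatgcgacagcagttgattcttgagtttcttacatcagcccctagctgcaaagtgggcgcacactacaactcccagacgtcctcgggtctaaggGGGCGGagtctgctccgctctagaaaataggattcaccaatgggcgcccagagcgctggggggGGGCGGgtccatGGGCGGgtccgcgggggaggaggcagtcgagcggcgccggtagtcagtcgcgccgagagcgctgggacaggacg
Chd5: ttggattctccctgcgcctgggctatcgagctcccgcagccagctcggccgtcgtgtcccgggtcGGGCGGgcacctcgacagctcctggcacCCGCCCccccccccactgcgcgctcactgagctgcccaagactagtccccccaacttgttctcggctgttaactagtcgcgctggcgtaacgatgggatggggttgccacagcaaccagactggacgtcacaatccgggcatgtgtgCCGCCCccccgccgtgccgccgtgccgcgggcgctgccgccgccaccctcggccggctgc
The Setd2 promoter held 7 matches and 38 CpG dinucleotides, that of Arid5a 3 matches and 22 CpG, that of Chd5 3 matches and 32 CpG, and that of Arid4b no match and 14 CpG.

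The RefSeq table held 71 promoters for 53 of the 72 genes, several genes having more than 1 start. The median count of CpG was 28 in these, 21 in the promoters of all listed genes and 7 in all 32851 promoters of the table. A GC box stood in 70.4% of the chromatin promoters, 63.6% of those of all listed genes and 35.7% of all promoters. The CCAAT box, letters CCAAT on either strand, stood in 31.0%, 37.3% and 37.4% of the same 3 sets. The SOX-like letters ACAAAG, on either strand, stood in 15.5%, 14.1% and 18.7%. Among the chromatin genes the GC box stood in 73.7% of 57 promoters of genes that fell and 57.1% of 14 promoters of genes that rose. In the same 3 sets as before, the E-box CACGTG stood in 8.45%, 9.71% and 7.15%, the TATA box TATAAA in 1.41%, 7.04% and 13.6%, and the ETS letters CCGGAAG in 9.86%, 14.2% and 8.86%, each on either strand. These are matches of letters and were not tested as binding sites.

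Of 5 listed acetyltransferases 4 fell and 1 rose (median -0.34, as log2 fold change). Kat6a, which acetylates histone H3 and had the most reads of the class, had 3101 and 3111 normalised reads in cKO cells, against 4374 and 4410 in control cells (log2 fold change -0.50 ± 0.04 SE, adjusted p 1.14e-10 in limma). Ep300, the p300 coactivator, had 1737 and 1621 in cKO cells and 2302 and 2251 in control cells (log2 fold change -0.44). Crebbp, its close relative, fell 1.27-fold and Kat2b, known as PCAF, fell 1.17-fold. Kat2a, the GCN5 acetyltransferase of the SAGA complex, went the other way, with 1415 and 1305 in cKO cells and 1143 and 1194 in control cells. The rise of Kat2a was small (log2 fold change 0.22). After removal of the GC trend it was called lower (-0.22, adjusted p 0.00453 in limma), and it had an adjusted p of 0.0518 in limma without cKO 1 (fold change 0.16 on the log2 scale). After removal of the trend of changes with gene length, described below, 2 of the 5 were lower and none higher, with Ep300 at -0.04 (adjusted p 1.0 in limma) and Crebbp at 0.04. Over all listed genes 47.1% were lower and 36.3% higher after that removal, so 2 of 5 is near the general share.

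Erasers of acetyl marks were the class that leaned upward. Of 7 listed deacetylases and sirtuins 5 rose and 2 fell. Their median was 0.25 as log2 fold change and -0.02 once the trend of changes with GC content, described below, was removed. Hdac3, a deacetylase that works in corepressor complexes, had 3193 and 3036 normalised reads in cKO cells and 2738 and 2816 in control cells (log2 fold change 0.17 ± 0.04 SE, adjusted p 0.00269 in limma), a rise that missed the threshold after removal of the length trend (0.08, adjusted p 0.213). Hdac8, a deacetylase that acts on cohesin, had 672 and 701 in cKO cells, against 548 and 540 in control cells. Sirt3, the main deacetylase of mitochondria, had 642 and 586 in cKO cells and 466 and 462 in control cells (log2 fold change 0.40). The exons of Sirt3 share 7.0% and 5.73% of their bases with Ric8a and Psmd13 on the other strand, and no strand setting was given. Hdac6, which deacetylates tubulin in the cytoplasm, and Hdac7, a class IIa deacetylase, rose 1.18-fold and 1.23-fold. Several of these enzymes thus act mainly outside histones.

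The deacetylases that fell were Hdac2 and Sirt1. Hdac2, one of the nuclear class I deacetylases known to be needed for oligodendrocyte differentiation in mice, had 2049 and 2093 normalised reads in cKO cells and 3059 and 2990 in control cells (log2 fold change -0.55 ± 0.04 SE, adjusted p 1.95e-10 in limma). Sirt1, an NAD-dependent deacetylase, had 238 and 160 in cKO cells and 377 and 402 in control cells, 1.96-fold lower, with cKO libraries that stood well apart from each other. With the GC trend removed the fall of Hdac2 no longer passed (-0.07, adjusted p 0.391 in limma). Per unit of length, the level of Hdac3 was 1.73 and 1.61 times that of Hdac2 in the cKO libraries, and 0.995 and 1.05 times in the controls. A ratio within a library does not depend on the scaling between libraries, but trends with GC content or length can still change it. Pairs for such ratios were chosen after their values were seen. Hdac1, Hdac4 and the other members of these families were not analysed here.

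Ncor1, a corepressor that recruits Hdac3 to thyroid hormone and retinoid receptors, fell. It had 3894 and 3909 normalised reads in cKO cells and 5368 and 5451 in control cells, 1.39-fold lower (log2 fold change -0.47 ± 0.04 SE, adjusted p 1.28e-10 in limma).

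All 4 listed H3K4 methyltransferases fell (median -0.43, as log2 fold change), and so did all 6 listed of the other SET-domain enzymes (median -0.49). Setd2, which places the H3K36 trimethyl mark along transcribed genes, had 1135 and 1160 normalised reads in cKO cells and 2393 and 2223 in control cells, 2.01-fold lower (log2 fold change -1.01 ± 0.05 SE, adjusted p 5.93e-14 in limma). Kmt2c, an enhancer methyltransferase of the MLL family, fell 1.55-fold, and Kmt2e, a family member without clear enzyme activity, fell 1.55-fold as well. Kmt2a, the founding MLL gene, had 1747 and 1834 in cKO cells and 2184 and 2041 in control cells, only 1.18-fold lower. Kmt5b, which methylates histone H4, fell 1.65-fold, Ash1l 1.34-fold and Setd5, which had the most reads among the other SET genes, 1.26-fold. Setd3, which methylates actin rather than histones, had the smallest fall of its class (log2 fold change -0.19). After removal of the length trend, 1 of the 4 H3K4 enzymes was lower and Kmt2a was called higher (0.22), and 3 of the 6 others were lower and Setd5 was called higher (0.17). The shares over all listed genes were then 47.1% lower and 36.3% higher.

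Polycomb and Asxl genes fell as well, 3 of 3 listed. Ezh2, the H3K27 methyltransferase of Polycomb repressive complexes, had 812 and 791 normalised reads in cKO cells and 1193 and 1206 in control cells, a log2 fold change of -0.58. Asxl3 had 118 and 129 in cKO cells and 237 and 245 in control cells, and Asxl2 fell 1.70-fold. Both encode partners of the deubiquitinase that removes the Polycomb mark from histone H2A.

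Demethylases made up the largest class, and all 12 listed fell, with log2 fold changes from -1.16 to -0.19 and a median of -0.49. After removal of the length trend 9 were lower and 2 were called higher, Kdm2a (0.20) and Kdm5b (0.18), against 47.1% and 36.3% of all listed genes. Kdm7a, which acts on repressive H3K9 and H3K27 marks, had 395 and 437 normalised reads in cKO cells, against 924 and 941 in control cells, 2.24-fold lower (log2 fold change -1.16 ± 0.08 SE, adjusted p 4.01e-12 in limma). Kdm3a, an H3K9 demethylase, fell 1.69-fold and Kdm5a, an H3K4 demethylase, 1.62-fold. At the other end, Kdm5c had 3443 and 3402 in cKO cells and 3860 and 4019 in control cells, and Kdm1a, the flavin-dependent demethylase LSD1, had 2905 and 2708 in cKO cells and 3222 and 3185 in control cells. With relative log expression factors, a scaling described below, 8 of the 12 were lower, against 42.0% of all listed genes. Kdm1a (-0.00048), Kdm2a (-0.007), Kdm5b (-0.08) and Kdm5c (-0.01) then missed the threshold. Kdm6a and Kdm5c lie on the X chromosome, as do Hdac6, Hdac8 and Smarca1. Kdm6a, an H3K27 demethylase, had 527 and 451 in cKO cells and 859 and 885 in control cells, while Xist, the RNA of the inactive X chromosome, had 2454 and 2219 in cKO cells and 7714 and 7771 in control cells, and Y-linked Ddx3y had 120 and 154 in cKO cells and 442 and 426 in control cells. The part of the pups' sex in these values was not tested.

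Remodelers of the CHD family fell in 8 of 9 listed cases (median -0.40, as log2 fold change), and 4 of the 9 were lower after removal of the length trend. That is near the share over all listed genes, of which 47.1% were then lower. Chd4, the ATPase of the NuRD complex, had the highest level per kilobase of all 72 genes, 1032 normalised reads per kilobase in cKO cells and 1323 in control cells. Its normalised reads were 8327 and 8224 in cKO cells and 10645 and 10567 in control cells, 1.28-fold lower. Chd7, which in mice binds with Sox10 at myelin genes, had 1752 and 1872 in cKO cells and 2884 and 2933 in control cells (log2 fold change -0.68 ± 0.05 SE, adjusted p 1.03e-11 in limma). Chd8, which acts upstream of Chd7 in the mouse lineage, had 1913 and 1920 in cKO cells and 2574 and 2495 in control cells, 1.32-fold lower, and stood at 0.05 (adjusted p 0.695 in limma) after removal of the length trend.

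Chd9 and Chd1 had the largest falls of the family. Chd9 had 598 and 624 normalised reads in cKO cells and 1273 and 1212 in control cells, and Chd1, which reads the H3K4 trimethyl mark, had 513 and 424 in cKO cells and 925 and 944 in control cells. Chd5, the NuRD ATPase found mainly in neurons, was the only CHD gene that rose. It had 545 and 510 in cKO cells and 360 and 368 in control cells, 1.45-fold higher (log2 fold change 0.53 ± 0.09 SE, adjusted p 1.38e-05 in limma), the largest rise of the 72 genes. With the GC trend removed it no longer passed (0.10, adjusted p 0.767 in limma), while with GC and length trends both removed it did. Per unit of length its level was 0.0547 and 0.0519 times that of Chd4 in cKO libraries and 0.0283 and 0.0291 times in controls.

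Subunits of the SWI/SNF complex, known as BAF in mammals, moved unevenly. Of 7 listed 6 fell and 1 rose, with log2 fold changes from -0.47 (Arid2) to 0.30 (Smarcd3). The median was -0.20 as log2 fold change, the nearest to 0 among the 13 role classes, while Smarcd1 and Smarce1 both stood at -0.45. With the GC trend removed 4 of the 7 were lower (against 40.7% of all listed genes), with Smarcd1 at -0.88 and Arid1a at -0.62. Smarce1 was then called higher (0.20). Arid1a, the DNA-binding subunit with the most reads of the class, had 3102 and 3154 normalised reads in cKO cells and 3569 and 3618 in control cells, 1.15-fold lower, and was called higher after removal of the length trend (0.12, adjusted p 0.0241 in limma). With relative log expression factors, described below, Arid1a and the class median both stood at -0.009. In that scaling 3 of the 7 were lower and 1 higher (42.0% and 46.8% of all listed genes). Smarcd1, known as BAF60A, had 2033 and 1900 in cKO cells and 2654 and 2724 in control cells, while its alternative subunit Smarcd3, known as BAF60C, had 1070 and 1061 in cKO cells and 892 and 837 in control cells. The level of Smarcd3 per unit of length was 0.414 and 0.439 times that of Smarcd1 in cKO libraries and 0.264 and 0.242 times in controls. The exons of Smarcd3 share 48.2% of their bases with Chpf2 on the other strand, and as no strand setting was given, reads of the pair cannot be told apart. The ATPase genes Smarca2 and Smarca4 were not analysed here.

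Other SNF2-type remodelers, grouped with the partner subunit Bptf, fell in 5 of 6 listed cases. Smarca5, the ATPase of most ISWI complexes, had 1744 and 1628 normalised reads in cKO cells and 3053 and 3010 in control cells, 1.80-fold lower (log2 fold change -0.85 ± 0.05 SE, adjusted p 2.09e-13 in limma). Its paralog Smarca1 had 105 and 112 in cKO cells and 218 and 215 in control cells, 2.00-fold lower, and after removal of the GC trend its fall missed the threshold (-0.36, adjusted p 0.0587 in limma). Bptf, the large subunit of the NURF complex, had a log2 fold change of -0.49. After removal of the length trend Bptf missed the threshold (-0.09, adjusted p 0.165 in limma) and Ep400 turned to 0.11 (adjusted p 0.0634). Ep400, the motor of the TIP60 complex, had 2724 and 2965 in cKO cells and 3361 and 3550 in control cells (log2 fold change -0.28). Smarcal1, a helicase that restarts stalled replication forks, rose, with 1027 and 955 in cKO cells and 797 and 838 in control cells.

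Bromodomain readers, which bind acetylated histones, fell by small amounts, 3 of 3 listed. Brd3 had 2420 and 2403 normalised reads in cKO cells and 2888 and 2932 in control cells, and Brd1 fell by the same proportion, 1.21-fold. None of the 3 passed after removal of the length trend, with Brd3 at -0.11 (adjusted p 0.0536 in limma) and Brd1 at -0.06 (adjusted p 0.606).

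Of the DNA methylation class 4 of 7 genes were listed and fell, with Dnmt3a the only one of them that adds methyl groups. Dnmt3a, which places new methyl groups, had 4443 and 4288 normalised reads in cKO cells and 6098 and 6534 in control cells, 1.45-fold lower (log2 fold change -0.53 ± 0.04 SE, adjusted p 3.95e-11 in limma). After removal of the length trend this fall missed the threshold (-0.07, adjusted p 0.217), while the 3 TET genes were still lower. All 3 TET dioxygenases, which oxidise methylcytosine, fell as well, with log2 fold changes from -0.93 to -0.69. Tet2 had 278 and 248 in cKO cells and 478 and 524 in control cells, Tet1 had 448 and 529 in cKO cells and 881 and 883 in control cells, and Tet3, the highest of them per kilobase, had 1745 and 1858 in cKO cells and 2892 and 2933 in control cells. The level of Tet1 per unit of length was 0.277 and 0.308 times that of Tet3 in cKO libraries. In controls it was 0.329 and 0.325 times, above both cKO values. With the length trend removed Tet1 still fell more than Tet3, at -0.42 against -0.23 as log2 fold change. With GC and length trends both removed Tet1 fell less, at -0.30 against -0.70 for Tet3. Tet1 also fell less than Tet3 with the GC trend alone removed.

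Dnmt3c, a mouse germline methyltransferase that arose as a copy of Dnmt3b, stood in no role class of the list. It had 14 and 6 recovered reads in cKO libraries, against 40 and 26 in control libraries, the lowest counts of the 72 genes. Its log2 fold change was -1.74 ± 0.43 SE, with adjusted p 0.00124 in limma. Without control 1 its adjusted p was 0.0821. Reads may be shared with Dnmt3b, which was not analysed here. The other 71 genes had at least 100 normalised reads in every library.

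The ARID proteins held the largest fall and one of the largest rises of the role classes. Arid4b, a subunit of the Sin3 deacetylase complex, had 491 and 432 normalised reads in cKO cells and 1294 and 1255 in control cells, 2.76-fold lower (log2 fold change -1.47 ± 0.07 SE, adjusted p 1.85e-14 in limma). Its gene, ENSMUSG00000039219, lies on chromosome 13 from 14063232 to 14199603 of GRCm38. Arid4a, the paralog in the same complex, fell 1.33-fold. Arid5a, an RNA-binding protein that stabilises inflammatory mRNAs, had 1241 and 1353 in cKO cells and 879 and 925 in control cells, 1.44-fold higher (log2 fold change 0.52 ± 0.06 SE, adjusted p 1.46e-07 in limma). With the GC trend removed this rise no longer passed (0.14, adjusted p 0.126 in limma).

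**Figure D2:**
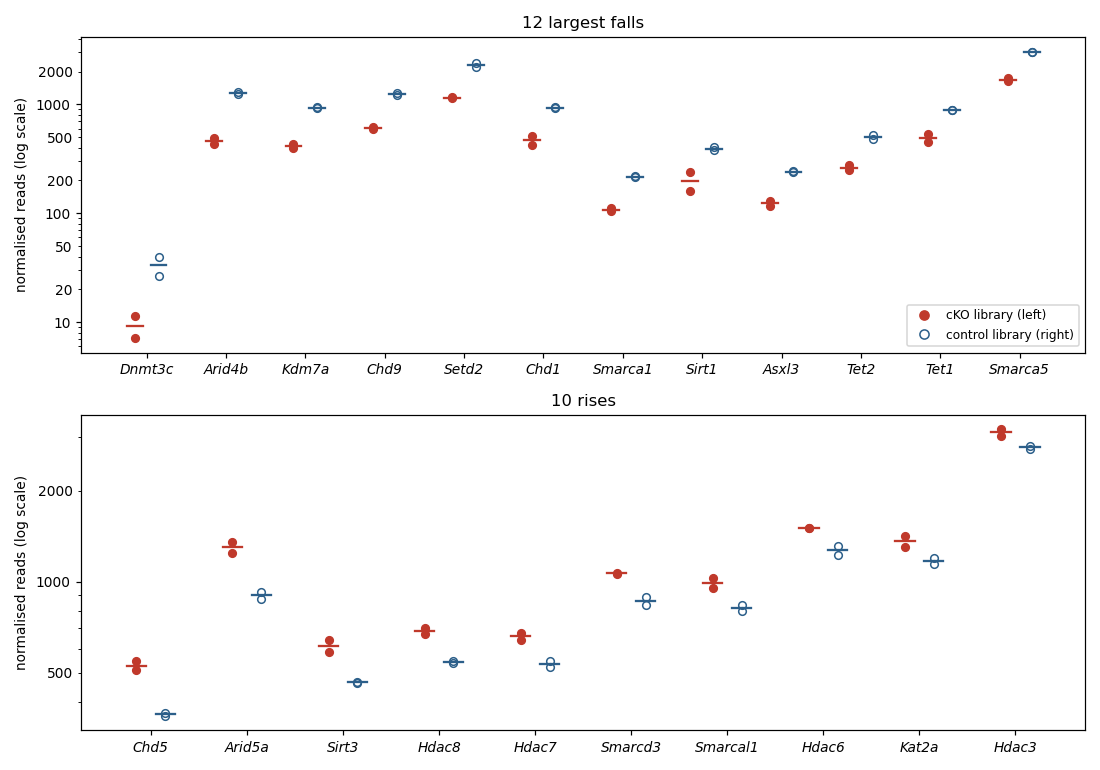
Normalised reads (log axis) of the 12 chromatin genes with the largest falls and of the 10 that rose, in each library. Filled points left are cKO libraries, open points right are control libraries, and short bars are means of 2. The groups do not overlap in any of the 22 genes, and the fold changes reach 2.76 for Arid4b among genes above 100 reads but only 1.45 for Chd5.

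The gap between Hdac3 and Hdac2 was wider in cKO cells. Per kilobase of gene length, control cells had Chd4 first with 1323 normalised reads, and Hdac3 with 690 lay above Hdac2 with 676. In cKO cells Chd4 stayed first with 1032, while Hdac3 had 774 and Hdac2 463. Kdm1a had 542 in cKO cells and 619 in control cells. These are chosen genes and not a full ranking, as Chd3, Smarcd1 and Kdm5c also lay above Hdac2 in cKO cells. With the GC trend removed Hdac3 stood at 0.26 and Hdac2 at -0.07 as log2 fold change, closer together than the uncorrected 0.17 and -0.55. At the low end, Dnmt3c had 4.17 in cKO cells and 15.0 in control cells, and Asxl3 had 7.95 in cKO cells and 15.5 in control cells. Across the 72 genes the median of the group means was 1476 normalised reads in cKO cells and 2114 in control cells.

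Chromatin genes are long, and log2 fold change ran with length in this table. The median length in the deposited table was 9132 bases for the 72 genes and 4892 for all listed genes, and 38 of the 72 fell in the longest quintile of the table. In that quintile the median log2 fold change was -0.51 for the 38 chromatin genes and -0.51 for all 1388 listed genes, with 36 of the 38 lower against 78.9% of the quintile. In the fourth quintile it was -0.31 for 18 chromatin genes and -0.41 for all. Over the whole table the log2 fold change ran with length, with a Spearman rho of -0.34 across 6940 genes, and the same measure was -0.32 (Pearson r -0.22 with log2 length) across the 72. These are descriptions across genes, which share libraries and are not replicates. With the trend with length removed, 39 chromatin genes were lower and 13 higher (47.1% and 36.3% of all listed genes), with a median of -0.16 against -0.09 over all genes. Called higher in place of lower were Arid1a, Kdm2a, Kdm5b, Kmt2a and Setd5. Those that no longer passed included Ash1l, Bptf, Brd1, Brd3, Chd2, Chd3, Chd6, Chd8, Crebbp, Dnmt3a, Ep300, Ep400, Kdm5c, Kmt2b, Kmt2c, Setd3 and Smarcc1 among the falls and Hdac3 and Kat2a among the rises.

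The pattern by GC content was different. The transcripts of chromatin genes had a median GC content of 47.8%, close to the 49.4% of all listed genes. Listed genes in the 2 richest quintiles were mostly higher in cKO cells, with median log2 fold changes of 0.35 and 0.41, while the chromatin genes there had medians of -0.28 (11 of 14 lower) and -0.20 (6 of 10 lower). In the lowest quintile both were lower, with medians of -0.84 for 11 chromatin genes and -0.67 for all. The rho of log2 fold change with GC content was 0.59 across the 72 (Pearson r 0.51) and 0.51 across 6934 listed genes. With the GC trend removed 54 chromatin genes were lower and 4 higher (40.7% and 29.2% of all listed genes), with a median of -0.44 against -0.06 over all. Kat2a was then called lower and Smarce1 higher (0.20). The falls of Arid4a, Brd7, Hdac2, Kat2b, Kdm4c, Setd3, Setdb2 and Smarca1 no longer passed, nor did the rises of Arid5a, Chd5, Hdac6, Hdac7, Smarcal1 and Smarcd3.

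**Figure D3:**
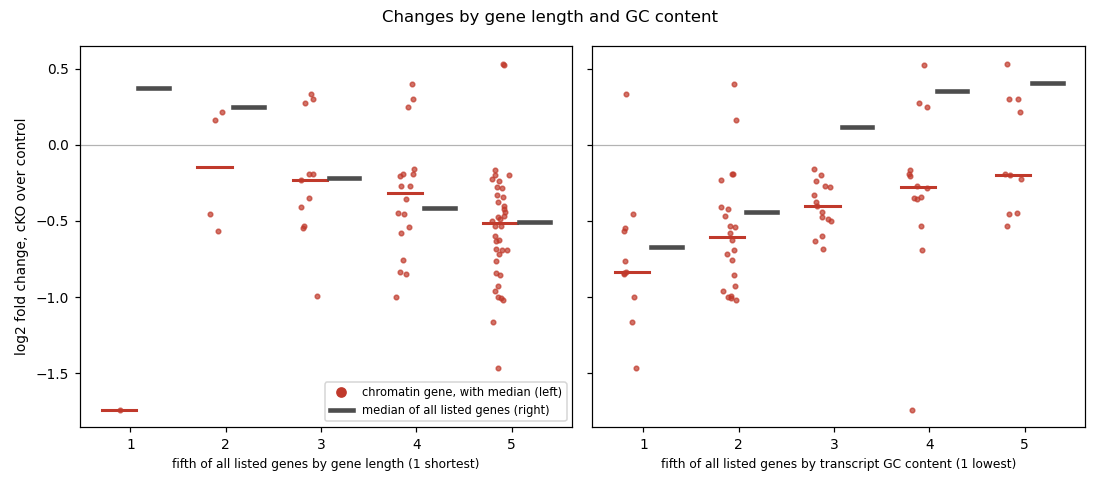
Log2 fold change of each chromatin gene (points) by the quintile of the whole table it falls in, for gene length and for GC content of the longest transcript. Bars left are medians of chromatin genes and bars right are medians of all listed genes. By length the medians nearly meet in the longest quintile, at -0.51 each, and by GC content the chromatin medians stay below 0 in the richest quintile, at -0.20, where all listed genes have 0.41.

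After removal of both the GC and the length trend, 47 of the 72 were lower and 6 higher, against 41.4% and 29.0% of all listed genes, and 19 no longer passed. The median was -0.30 among chromatin genes and -0.07 over all listed genes. All 4 listed DNA methylation enzymes, Ncor1, Brd1 and Brd3 were still lower, as were 7 of 9 CHD genes and 9 of 12 demethylases. Among the largest falls then were those of Dnmt3c (-2.20), Smarcd1 (-0.87), Kdm6b, an H3K27 demethylase (-0.77) and Tet3 (-0.70). Arid4b stood at -0.70, less than in the uncorrected values, and Smarca5 at -0.26. Of the 10 genes that rose, 5 were still higher, Hdac8 (0.69), Sirt3 (0.56), Arid5a (0.38), Chd5 (0.29) and Hdac3 (0.19). Kat2a turned to -0.25, and the BAF subunit Smarce1 turned from a fall, -0.45, to 0.21. The rises of Hdac6, Hdac7, Smarcal1 and Smarcd3 no longer passed, nor did the falls of Arid4a, Ash1l, Asxl2, Brd7, Chd2, Kat2b, Kdm2a, Kdm5a, Kdm5b, Kmt2a, Setd3, Setdb2, Smarca1, Smarcad1 and Smarcc1.

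**Figure D4:**
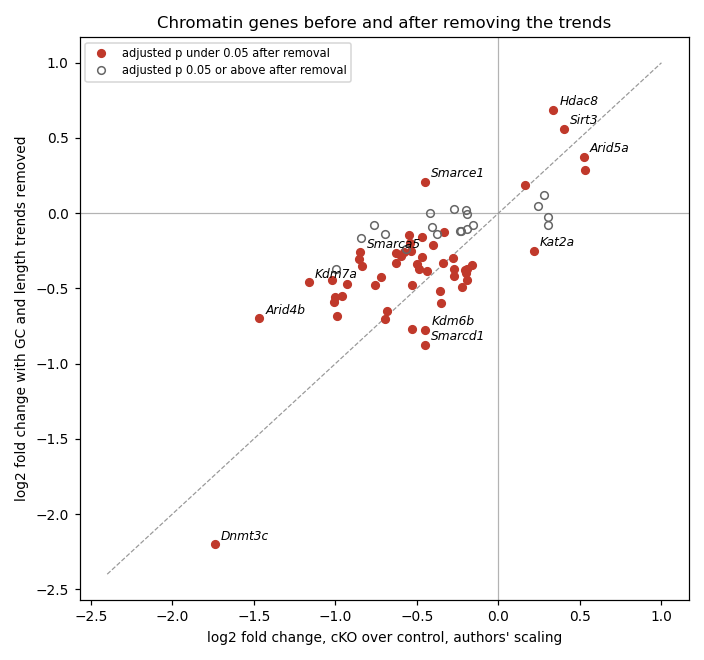
Log2 fold change of each chromatin gene on the authors' scaling (x axis) and after removal of the GC and length trends (y axis). Filled points pass at an adjusted p under 0.05 after removal and open points do not, and the dashed line marks equal values. Most genes stay below 0 on both axes (47 pass as lower), while Smarce1 and Kat2a pass with the opposite sign and Ash1l, Kdm2a, Kdm5b, Hdac7 and Smarcd3 change sign without passing.

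The scaling between libraries also moved the group. Relative log expression factors estimated from the listed genes raised all log2 fold changes by about the same amount, bringing the median of all genes to -0.03 and that of chromatin genes to -0.26. With them 44 chromatin genes were lower and 10 higher (42.0% and 46.8% of all listed genes), and the 18 that no longer passed included Brd1 and Brd3. Smarcc1 then stood at 0.03 and Chd3 at 0.00091.

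Chromatin genes outside these families gave a comparison. Of 122 fixed genes (Polycomb subunits, SWI/SNF partners, chaperones, readers and others) 53 were listed, with 41 lower and 12 higher (against 53.3% and 46.7% of all listed genes) and a median log2 fold change of -0.40. With GC and length trends removed 27 were lower and 8 higher (against 41.4% and 29.0% of all listed genes). The median was then -0.14, against -0.07 over all listed genes. The largest falls were those of Baz1a, a subunit of ISWI complexes, with 310 and 357 normalised reads in cKO cells and 765 and 804 in control cells, Mtf2, a Polycomb accessory protein, 2.17-fold lower, and Pcgf3, 2.11-fold lower. Actl6b, the neuronal BAF subunit, rose most, with 235 and 252 in cKO cells and 101 and 152 in control cells, followed by Uhrf1, which guides maintenance DNA methylation, 1.48-fold higher, and the methyltransferase Smyd5, 1.45-fold higher.

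Cell type markers moved in the same libraries. All 8 listed of 12 myelin markers were lower, summing to 62131 and 64381 normalised reads in cKO cells and 309323 and 310022 in control cells, and all 7 listed of 8 lineage markers were lower. Pericyte and fibroblast markers (9 of 10 listed) were all higher, summing to 12317 and 11909 in cKO cells and 4001 and 3808 in control cells. Astrocyte markers (9 of 10 listed, 7 higher and 2 lower) summed to 732639 and 726112 in cKO cells and 487912 and 489159 in control cells, and 4 of 10 microglia markers were listed and higher. The astrocyte gene Gfap had the highest mean of all listed genes, 555415 normalised reads in cKO cells and 351796 in control cells. Of 10 neuron markers, beside which the rises of Chd5 and Actl6b stand, 8 were higher and 2 lower, and their sum was 17749 and 17532 in cKO cells and 18610 and 18926 in control cells. Of 8 endothelial markers 2 were higher and 1 lower, the rest not analysed here. In bulk RNA, fewer cells of a type and less RNA per cell cannot be told apart, and the part of these markers in the changes of chromatin genes was not tested.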

How the data were processed

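RNA was sequenced in 2 cKO and 2 control libraries of cells panned for oligodendrocytes. The table the authors deposited holds, per the file headers, each gene's length, its normalised signal in every library (reads over a size factor) and, from their own test, log2 fold change, p-value and adjusted p-value. DESeq2 and the builds mm10 and GRCm38 are named in the submitters' processing notes. For aligner, counting tool, strand setting and annotation the entry is: not given in the sources used here.

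In the authors' deposited table all 6940 adjusted p-values lie under 0.05, and they imply 17347 genes tested, of which 40.0% were listed. Within 0.01 read, 100% of values were whole reads. The listed genes held 20068016 and 13672254 reads in cKO and 17077509 and 16773675 in control libraries, which is not the libraries' whole depth. The table alone was fitted with limma 3.58.1 (R 4.3.3) on log2(value + 1) with a variance trend, and genotype alone as a term, leaving 2 residual degrees of freedom. A value of 1 or more in 2 libraries was required. Benjamini-Hochberg adjustment took 17347 tests, and an adjusted p under 0.05 was a call. Because listed genes had been selected for their difference, limma may underestimate their spread, and calls in the same libraries are not independent evidence. Fold changes given as a fold are ratios of mean normalised reads.

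GC content came from the longest transcript of each gene in GENCODE M21 (GRCm38), for 6934 listed genes and all 72 chromatin genes. Trends were removed per library with splines of 4 degrees of freedom, keeping the mean over genes. Exons of 26 chromatin genes overlap a gene on the other strand. Alternatives were edgeR 4.0.16 and DESeq2 1.42.0 on recovered reads, other pseudocounts, filters and scalings, each library left out, and a replicate term. The procedure was tested on simulated data. Named genes were the 12 largest falls, all rises (10, of up to 12), the gene with the most reads in each class, those with published roles in oligodendrocytes and, of other chromatin genes, 3 rises and 3 falls. Further members are named within their class, and 2 of the 72 are counted but not reported by name here. Members and lists were chosen with earlier results of these data known.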

Additional observations from a re-analysis of the deposited data

How the results depend on the processing

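The 62 falls and 10 rises were called alike with pseudocounts of 0.5 and 10, no filter, edgeR, DESeq2 and adjustment over listed genes alone. A filter of 50 left out Dnmt3c. With the GC trend removed the number of chromatin genes higher was 4, and with GC and length trends removed it was 6, with or without the replicate block. With the length trend removed 39 were lower. The median log2 fold change of the 72 was -0.38 with TMM factors, -0.26 with relative log expression factors, -0.16 with the length trend removed and -0.30 with both trends removed (-0.30 also with the replicate block). Without each library in turn it lay between -0.46 and -0.42, with 59 to 62 genes lower and 9 to 10 higher. The calls lost included those of Kat2a, Dnmt3c, Kat2b, Smarcc1 and Setd3.

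For chromatin genes outside the families, 7 were higher and 29 lower with the GC trend removed (29.2% and 40.7% of all listed genes). With both trends removed 8 were higher and 27 lower (29.0% and 41.4% of all listed genes), and 27 of these chromatin genes were lower with the replicate block. Their median was -0.40 with a pseudocount of 10, edgeR or DESeq2, -0.33 with TMM factors, -0.21 with relative log expression factors, -0.23 with the GC trend, -0.24 with the length trend and -0.14 with both trends removed, with or without the replicate block, and -0.43 to -0.42 without each library.

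The rho of the 72 with length was -0.38 with the filter of 50, -0.42 with the GC trend removed, 0.10 with the length trend removed and -0.15 with both removed (-0.15 with the replicate block), and -0.37 to -0.29 without each library. The rho with GC content was 0.63 with the filter, -0.25 with the GC trend removed, 0.60 with the length trend removed and -0.17 with both removed (-0.17 with the replicate block), and 0.55 to 0.60 without each library. A trend that is removed is gone by construction.

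With the length trend removed, the genes whose direction turned included Arid1a (0.12), Chd8 (0.054), Ep400 (0.11), Kmt2a (0.22) and Setd5 (0.17), and also Chd2, Chd3, Crebbp, Kdm2a, Kdm5b, Kmt2b and Smarcc1. With the GC trend removed directions turned for Hdac6 (-0.021), Hdac7 (-0.17), Kat2a (-0.22), Smarcd3 (-0.16) and Smarce1 (0.20), and the deacetylase median was -0.021. With both trends removed, with or without the replicate block, the values were -0.029 for Hdac7, -0.25 for Kat2a and -0.077 for Smarcd3, and Ash1l, Kdm2a, Kdm5b and Smarce1 turned too. The cause was not tested in any of these. Same-numbered libraries did not deviate together (correlation -0.02 over 6703 genes with a mean of at least 50), and the replicate block alone left 62 lower and 10 higher.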
